A study of Mus musculus with 8 samples.

Results

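The T-box genes are 10 members of 1 transcription factor family, T (brachyury), Eomes, Tbx1, Tbx15, Tbx18, Tbx20, Tbx2, Tbx4, Tbx3 and Tbx5, out of 21887 protein-coding genes. For each of them, all H2AK119ub peaks that touched the RefSeq gene span with 20 kb on either side were taken from an Eed cKO list and a control list. The gene names set the members and no measured value did. The lists come from chromatin immunoprecipitation and sequencing of basal epidermal progenitors, sorted from newborn (postnatal day 0) mouse back skin as EpCAM-positive, Sca1-positive and α6-integrin-high cells. Eed cKO cells carry the genotype Eed-/-, and control cells are labelled Control. Each of these genotypes had 2 H2AK119ub libraries and 1 input, but 1 list of peaks, with positions alone and no score. The sources used here name no Cre line, control allele, number of animals or sex, and the Ring1a/b 2KO samples of the same study were not analysed here.

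H2AK119ub is histone H2A with 1 ubiquitin, placed by Polycomb repressive complex 1 (PRC1) at silent developmental genes. Eed belongs to the core of the second Polycomb complex (PRC2), the H3K27 methyltransferase, and methylated H3K27 is a mark that some forms of PRC1 bind and other forms do not need. T-box factors share a DNA-binding domain named after brachyury and direct mesoderm, heart, limb and pharyngeal programmes in the embryo. In mice, Tbx1 and Tbx3 have also been studied in stem and progenitor cells of the skin.

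The Eed cKO list held 2541 peaks over 16.6 Mb and the control list 4621 peaks over 29.0 Mb, so covered length in Eed cKO was 57.3% of control across the genome. Read depth cannot be known from peak positions, and less mark, fewer reads and a stricter call cannot be told apart. A single list per genotype leaves no error between replicates, so values are set side by side without a test. The Eed gene itself had no peak of either list in its window, and peak positions do not show a deletion. The cell type label could be read only through peak positions, which do not measure expression. Of 6 basal keratinocyte markers, 0 had an Eed cKO peak in the same 20 kb window and 1 had a control peak, 6.17 kb from Krt5. The counts in Eed cKO and control were 1 and 2 of 4 suprabasal markers, 1 and 2 of 4 fibroblast markers, 0 and 0 of 4 melanocyte markers and 0 and 1 of 3 leukocyte markers.

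H2AK119ub lay at nearly all of these genes in both genotypes. An Eed cKO peak was present at 9 of 10 members, against 14.3% of all protein-coding genes, and a control peak at 10 of 10, against 21.2%. The 9 members with an Eed cKO peak were also marked in control, and both lists together marked 11.7% of all genes. Tbx18 was the 1 member with a control peak alone, as were 9.52% of all genes, and 0 members had an Eed cKO peak alone, as did 2.65% of all genes. The 10 genes were chosen with earlier results of these data known, and 4 of the 7 T-box genes outside the choice had no peak in either list, so these counts describe the choice. Over all 17 T-box genes of the mouse, 10 had an Eed cKO peak and 13 a control peak. Of these 10, Tbx21 was counted through a peak 19664 bp from its span. Among genes with a control peak in this window, 55.1% had an Eed cKO peak. In all, 17 Eed cKO peaks and 16 control peaks were counted, and none was counted for more than 1 member. Each of the 17 Eed cKO peaks overlapped a control peak, against 70.1% of the whole Eed cKO list, and 12 of the 16 control peaks overlapped an Eed cKO peak, against 37.9% of the whole control list. The median gene span of the members was 21.4 kb, against 17.2 kb for all protein-coding genes.

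Promoter positions were compared with both lists at the members that have a promoter entry, which Tbx2, Tbx3, Tbx5 and Tbx15 lack. RefSeq (GRCm38.p6, the assembly of mm10) gave 7 promoters for 6 of the members, T, Eomes, Tbx1 (2 starts), Tbx18, Tbx20 and Tbx4, each running from 250 bases before to 50 bases after the start. Of the 7, 5 lay whole in an Eed cKO peak and 7 in a control peak. The 2 outside Eed cKO peaks were those of Tbx18 and Tbx4. Of all 32851 promoters in the table, 3.63% overlapped an Eed cKO peak and 6.33% a control peak, and 43.6% of those in a control peak overlapped an Eed cKO peak. Below are the 250 bases before the start for the 2 promoters that lay in control peaks alone, Tbx18 (chr9:87731261-87731510, minus strand) and Tbx4 (chr11:85896515-85896764, plus strand), and for 3 that lay in peaks of both lists, T (chr17:8434173-8434422, plus strand), Eomes (chr9:118477939-118478188, plus strand) and Tbx20 (chr9:24774304-24774553, minus strand). They are written 5′ to 3′, and capitals mark each CG, the dinucleotide that is dense at many Polycomb-bound promoters.
Tbx18: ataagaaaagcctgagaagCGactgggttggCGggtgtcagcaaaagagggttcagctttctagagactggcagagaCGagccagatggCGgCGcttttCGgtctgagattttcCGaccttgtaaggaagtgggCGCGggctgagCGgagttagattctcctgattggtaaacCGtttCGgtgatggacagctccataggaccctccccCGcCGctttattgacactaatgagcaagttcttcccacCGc
Tbx4: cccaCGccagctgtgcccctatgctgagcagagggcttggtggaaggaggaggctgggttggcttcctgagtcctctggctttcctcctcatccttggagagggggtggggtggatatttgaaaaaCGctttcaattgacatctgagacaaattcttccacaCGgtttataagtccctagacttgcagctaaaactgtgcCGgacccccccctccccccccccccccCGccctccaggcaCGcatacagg
T: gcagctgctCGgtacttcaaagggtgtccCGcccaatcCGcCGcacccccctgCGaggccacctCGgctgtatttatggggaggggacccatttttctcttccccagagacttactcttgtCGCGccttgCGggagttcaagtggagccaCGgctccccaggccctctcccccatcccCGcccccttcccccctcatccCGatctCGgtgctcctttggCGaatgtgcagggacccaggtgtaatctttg
Eomes: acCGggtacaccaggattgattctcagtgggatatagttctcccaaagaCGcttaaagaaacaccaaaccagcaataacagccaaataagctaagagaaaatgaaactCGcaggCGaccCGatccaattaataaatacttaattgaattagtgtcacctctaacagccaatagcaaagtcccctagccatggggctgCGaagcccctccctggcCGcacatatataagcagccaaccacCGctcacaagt
Tbx20: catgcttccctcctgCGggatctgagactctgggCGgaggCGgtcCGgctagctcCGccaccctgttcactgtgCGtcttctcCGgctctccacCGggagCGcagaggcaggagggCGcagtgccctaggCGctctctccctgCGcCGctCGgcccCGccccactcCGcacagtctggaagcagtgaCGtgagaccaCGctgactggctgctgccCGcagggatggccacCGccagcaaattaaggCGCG
CG was found 15 times before the Tbx18 start and 6 times before the Tbx4 start. It was found 14 times for T, 8 times for Eomes and 22 times for Tbx20, and 17 and 10 times for the 2 starts of Tbx1. Of the 2 promoters outside Eed cKO peaks, that of Tbx18 lay within the range of the other 5, from 8 to 22, and that of Tbx4 lay below it. The median over the 7 was 14, against 6 for all promoters, 13 for promoters in an Eed cKO peak and 13 for those in a control peak. At least 22 CG occurred in 14.8% of all promoters and at least 6 in 50.4%. An 8-base form of the motif that T binds was searched on both strands as the exact sequences AGGTGTGA and TCACACCT. It occurred in 0 of the 7 windows and in 1.12% of all promoters. At that share, 0 of 7 does not show that sites for T are absent.

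Brachyury and Eomes, the mesoderm and endoderm factors, differed in direction. T, which is required for mesoderm and notochord, had a 10.3 kb peak in Eed cKO (chr17:8428007-8438349) and a 5.90 kb peak in control (chr17:8431474-8437374). The Eed cKO peak held the whole control peak and reached 3.47 kb beyond its lower edge and 0.975 kb beyond its upper edge. Both covered the start of T and the gene model LOC115486424. Eomes, which acts in the primitive streak and later in trophoblast, cortex and lymphocytes, had a 9.27 kb peak in Eed cKO (chr9:118474947-118484214) against 21.9 kb in control (chr9:118468727-118490638). Here the Eed cKO peak lay inside the control peak, with 6.22 kb missing at the lower edge and 6.42 kb at the upper edge, and covered 42.3% of it. The Eed cKO peak covered the start of Eomes but not its other end, whereas the control peak passed both ends of the span. T was thus the member with the narrowest control total, at 5.90 kb, and the only member whose single Eed cKO peak held its whole control peak.

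Tbx1, a pharyngeal arch factor whose human counterpart is deleted in DiGeorge syndrome, had the largest covered length in both genotypes with 20 kb on either side. In control its lead was small, at 41.8 kb against 41.2 kb at Tbx4. Single control peaks at Tbx3 and Tbx15, of 38.8 and 38.1 kb, were wider than any counted at Tbx1. In Eed cKO a 21.6 kb peak (chr16:18574272-18595918) spanned the gene, and in control a 23.6 kb peak (chr16:18576611-18600227) did. The Eed cKO peak began 2.34 kb below the control peak and ended 4.31 kb before it did, and it covered 81.8% of the control peak. Upstream of the gene, 10953 bp from the span, an Eed cKO peak of 32.1 kb (chr16:18601624-18633770) also covered Gp1bb and Septin5. It was rank 11 of 2541 by width. In control the same stretch held 2 peaks, 10.3 kb (chr16:18601613-18611869) and 18.4 kb (chr16:18615238-18633595), the second of them outside the 20 kb window. The Eed cKO peak began 11 bp from the start of the first control peak and ended 175 bp from the end of the second, so it joined the stretch that 2 peaks held in control. On the other side of Tbx1, a 7.95 kb control peak in Gnb1l (chr16:18560866-18568810) met no Eed cKO peak. Because the upstream Eed cKO peak was counted whole while 1 of the 2 control peaks under it was not, the total at Tbx1 was 53.8 kb in Eed cKO against 41.8 kb in control.

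Tbx15, Tbx18 and Tbx20, close relatives of Tbx1, each had 1 control peak over 20 kb. Tbx15, which shapes skeleton and coat pigment pattern, had 4 Eed cKO peaks of 2.50, 6.00, 4.61 and 9.88 kb (chr3:99234319-99259649 from first to last) inside a single 38.1 kb control peak (chr3:99228939-99267075). The gaps between the 4 were 623, 217 and 1501 bp, so they form a near-continuous 25.3 kb block, and they covered 60.3% of the control peak. The block lacked 5.38 kb at the lower and 7.43 kb at the upper edge of the control peak. Tbx20, a heart factor, had a 12.5 kb Eed cKO peak (chr9:24769169-24781623) inside a 23.1 kb control peak (chr9:24761130-24784198). Both lay over the start of Tbx20, with 8.04 kb missing in Eed cKO on the gene-body side and 2.58 kb on the upstream side. Tbx18, which acts in epicardium, sinus node and ureter and marks dermal papilla precursors, had no Eed cKO peak. Its 23.8 kb control peak (chr9:87719783-87743557) covered the start of the gene, with 1856 kb from the span to the closest peak of the Eed cKO list. In control the next peak outside the Tbx18 window lay 685 kb away, so the control domain there stood alone as well.

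**Figure D1:**
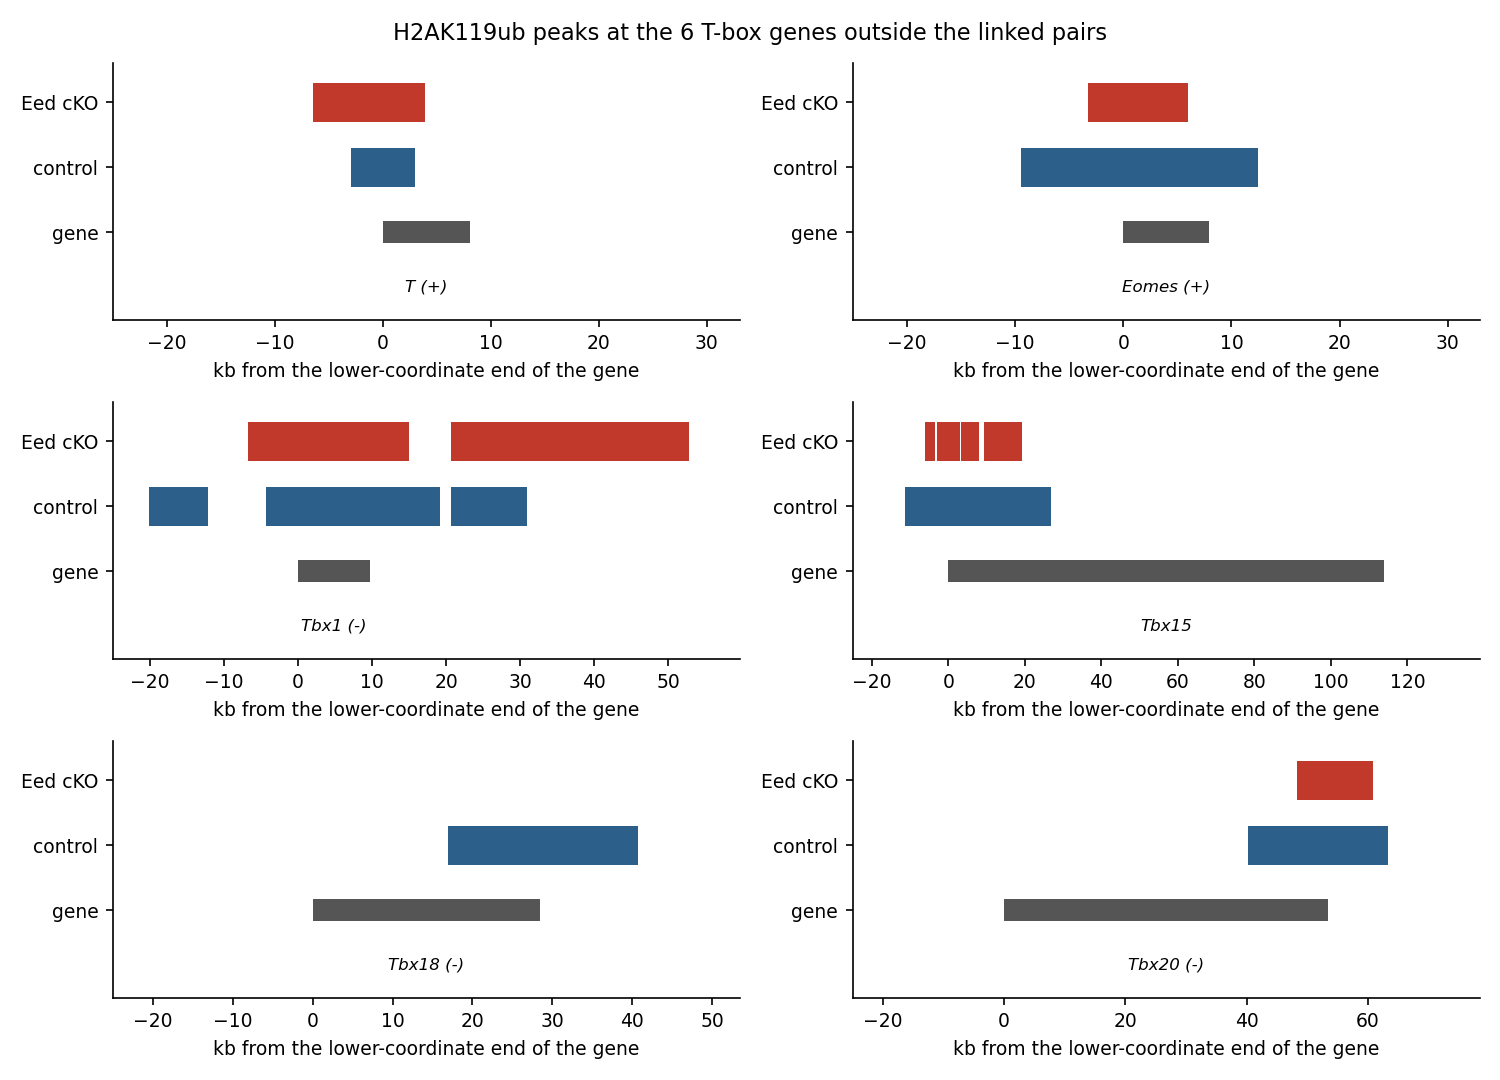
Peaks of the Eed cKO list (red, upper row) and the control list (blue, middle row) that touch the gene span with 20 kb on either side, at the 6 members outside the linked pairs; the x axis is distance in kb from the lower-coordinate end of the gene (grey), and + or - is the strand where the promoter table gave it. The Eed cKO row is empty at Tbx18, wider than control at T, and split into 4 peaks at Tbx15. At Tbx1 an 18.4 kb control peak lies under the 32.1 kb Eed cKO peak but outside the window, and it is not drawn.

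Tbx2 and Tbx4 lie next to each other on chromosome 11, with 44.4 kb between their spans, and Tbx3 and Tbx5 lie next to each other on chromosome 5, with 112 kb between. The pairs descend from an ancestral duplication, Tbx2 and Tbx3 being repressors studied in heart, limb and mammary gland and Tbx4 and Tbx5 being the hindlimb and forelimb factors. In neither genotype did 1 peak reach both genes of a pair. Over the stretch from 20 kb before Tbx2 to 20 kb after Tbx4 (chr11:85812615-85936097), 3 Eed cKO peaks covered 36.6 kb and 5 control peaks covered 68.6 kb. Over the stretch from 20 kb before Tbx3 to 20 kb after Tbx5 (chr5:119650534-119905220), 5 Eed cKO peaks covered 36.7 kb and 3 control peaks covered 73.1 kb. The number of peaks was therefore lower in Eed cKO at the first pair and higher at the second, while the covered lengths were alike between the pairs within each genotype. Between the spans of Tbx2 and Tbx4, peaks covered 9.12 kb in Eed cKO and 19.0 kb in control, or 20.5% and 42.8% of the interval. Between Tbx3 and Tbx5 they covered 8.20 kb in Eed cKO and 9.84 kb in control, or 7.34% and 8.80%.

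Within the Tbx2 and Tbx4 pair, Tbx2 had most of its control domain covered in Eed cKO. With 20 kb on either side, Tbx4 had the lowest share of the 9 members with Eed cKO peaks. Tbx2 had a 23.6 kb Eed cKO peak (chr11:85825459-85849041) inside a 27.4 kb control peak (chr11:85823410-85850843), shorter by 2.05 and 1.80 kb at the 2 edges and covering 86.0% of it. Both passed the whole Tbx2 span and reached into the neighbour Bcas3. Tbx4 had 2 Eed cKO peaks, 9.91 kb (chr11:85884344-85894252) and 3.11 kb (chr11:85908386-85911495). In control it had 4, of 2.61 kb (chr11:85870739-85873348), 23.0 kb (chr11:85878848-85901843), 1.93 kb (chr11:85908129-85910061) and 13.7 kb (chr11:85920585-85934247). The 9.91 kb Eed cKO peak lay inside the 23.0 kb control peak and ended 7.59 kb before its upper edge. The promoter shown above for Tbx4, whose start lies 10.4 kb inside the span, falls in that uncovered stretch, whereas the lower end of the span lies in both peaks. The outer 2.61 and 13.7 kb control peaks met no Eed cKO peak, and the small peak inside the gene was wider in Eed cKO, at 3.11 kb against 1.93 kb. Eed cKO peaks covered 28.1% of the control length at Tbx4. This low rank rests on the 2 outer control peaks, which lay 13019 and 4488 bp from the span. The 2 control peaks that touched the span were covered by 43.1% and 86.7%, against 42.3% at Eomes.

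Tbx3 and Tbx5 had 48.0% and 52.8% of their control length covered in Eed cKO, and at each the lower end of the gene span was left uncovered. Tbx3 had 3 Eed cKO peaks, of 4.38 kb (chr5:119660482-119664864), 3.76 kb (chr5:119677661-119681419) and 10.5 kb (chr5:119682420-119692926), all inside a 38.8 kb control peak (chr5:119654172-119693009). The upper edges of the 2 domains were 83 bp apart, whereas the lower edge in Eed cKO lay 6.31 kb further in. A gap of 12.8 kb between the first and second Eed cKO peaks took in the lower end of the Tbx3 span. Tbx5 had Eed cKO peaks of 8.69 kb (chr5:119799825-119808513) and 9.40 kb (chr5:119835078-119844475), each inside its own control peak, of 15.5 kb (chr5:119794956-119810475) and 18.7 kb (chr5:119828207-119846943). They covered 56.0% and 50.2% of these. In both cases more was missing at the lower edge, 4.87 and 6.87 kb, than at the upper, 1.96 and 2.47 kb. The first Eed cKO peak did not reach the lower end of the Tbx5 span, which the first control peak took in.

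**Figure D2:**
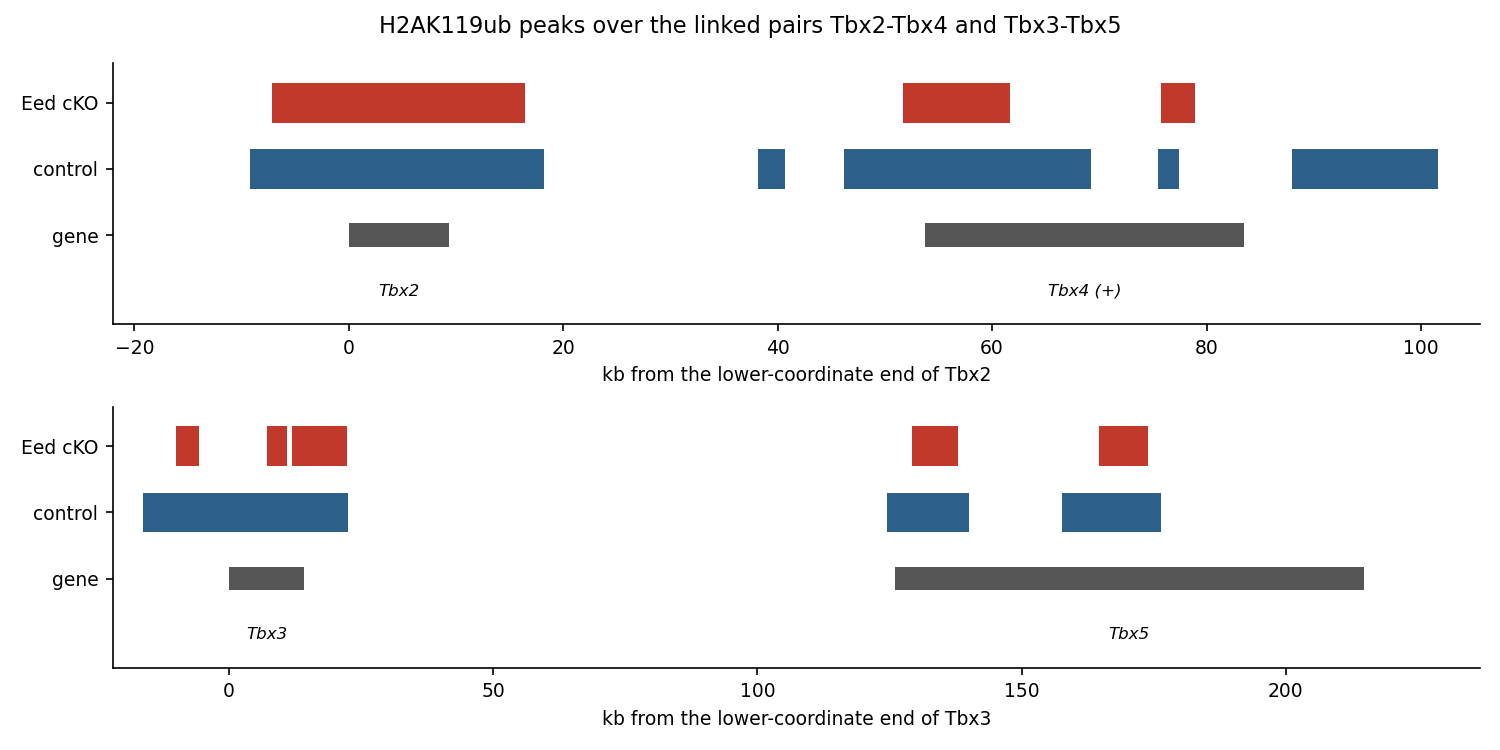
Peaks over the linked pairs Tbx2 with Tbx4 (upper panel) and Tbx3 with Tbx5 (lower panel), Eed cKO in red above control in blue, with gene spans in grey; the x axis is distance in kb from the lower-coordinate end of the first gene. The first pair has 3 Eed cKO and 5 control peaks and the second 5 and 3, and no peak joins the 2 genes of a pair.

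The linked pairs and the other members had like shares covered. Eed cKO peaks covered 50.7% of the control length at the 4 linked genes and 51.9% at the 6 others. The direction turned with the gene span alone as the window, at 57.3% for linked genes against 51.3% for the others, and without Tbx18 the others stood at 61.3%. The spread among single genes was far larger, with 28.1% to 86.0% among linked genes and 0% to 100% among the others. Total covered length in Eed cKO was 51.7% of control at the linked genes and 70.4% at the others, where the 32.1 kb peak beside Tbx1 is counted. All 8 Eed cKO peaks at linked genes and all 9 at the others overlapped control peaks, and 6 of 8 control peaks in each set overlapped Eed cKO peaks.

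**Figure D3:**
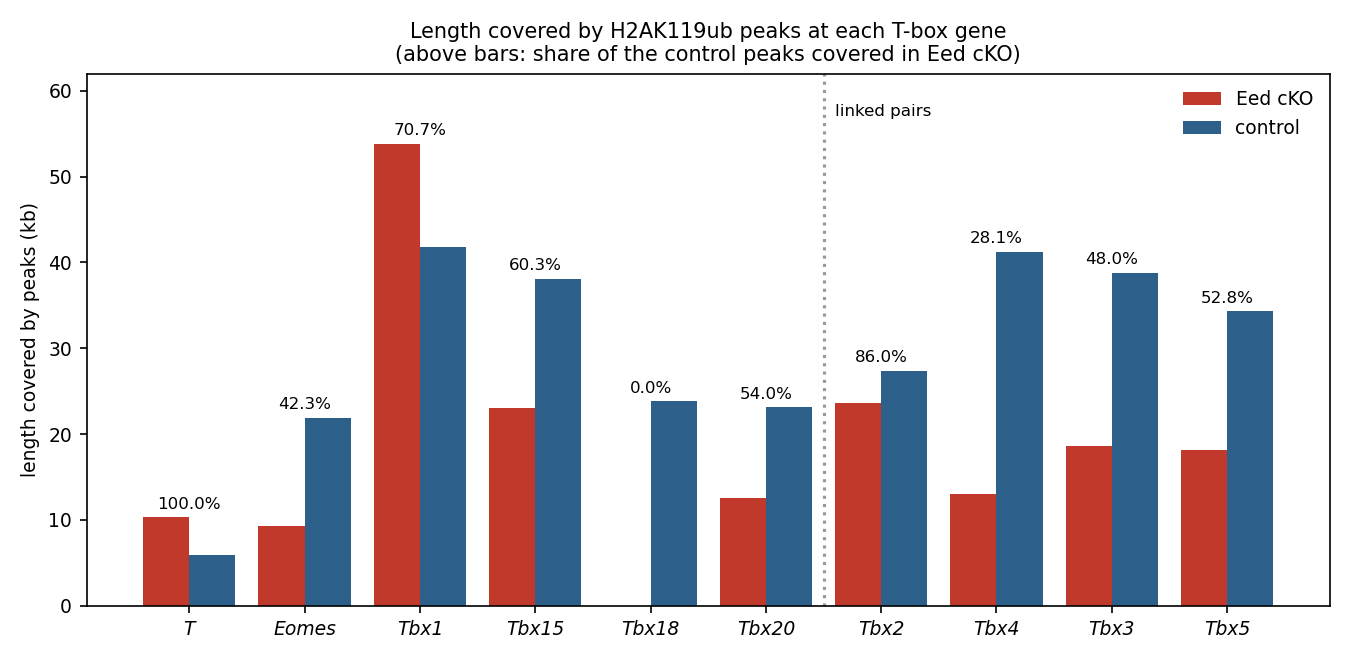
Length in kb covered by all peaks counted for each gene, with Eed cKO in red left of control in blue; the label is the share of the control length that Eed cKO peaks cover. The Eed cKO bar is higher at T and Tbx1 and lower at the other 8 genes, with no bar at Tbx18. The order at Tbx1 rests on the window, since the 32.1 kb Eed cKO peak is counted whole. An 18.4 kb control peak under it lies outside the window and is not counted.

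Over all 10 genes, peaks covered 182 kb in Eed cKO and 296 kb in control, or 61.5% as much, against 57.3% over the whole lists. With only the part of each peak inside the window counted, the ratio at the members was 53.9%. Whether the members lay above or below the whole lists thus turned with the way peaks were counted. Of the control length, 51.3% was covered in Eed cKO, against 36.8% over the whole control list. The median member had 53.4% covered, against 17.7% for all protein-coding genes with a control peak, of which 48.4% had nothing covered. The members' control peaks were wide, and the share overlapped also differed with width over the whole control list. Peaks over 20 kb made up 3 of 17 at the members in Eed cKO, against 2.44% of that list, and 8 of 16 in control, against 4.48%. Of these 8 wide control peaks, 7 overlapped an Eed cKO peak, against 81.6% of all 207 control peaks over 20 kb. Their median cover was 51.0%, against 44.2% for all such peaks, and 2 of the 7, Tbx15 and Tbx3, met more than 1 Eed cKO peak, against 37.3%. By these measures wide peaks at T-box genes lay near the values of wide peaks elsewhere.

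Narrowing gave a like picture. At the members, 9 control peaks met exactly 1 Eed cKO peak that met no other control peak. The Eed cKO peak was the wider in 2 of these 9, T and the small Tbx4 peak, against 53.0% of 1470 such pairs in the genome. It lay wholly inside the control peak in 6 of 9, against 25.9%. Among pairs whose control peak was over 20 kb, it lay inside in 4 of 5 at the members and in 79.0% of 100 in the genome, and it was the wider in 0 of 5 and in 6.00%. Over the 12 control peaks with an overlap, the outermost Eed cKO edge lay inside the control edge at 19 of 24 edges. Edges were not counted over the whole control list, so whether this count is particular to the members was not tested. The 5 exceptions were both edges of T, the lower edge over the Tbx1 gene, the upper edge of the joined peak beside Tbx1 and the upper edge of the small Tbx4 peak. The joined peak was set against the first control peak under it, and the second ended 175 bp from its upper edge.

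**Figure D4:**
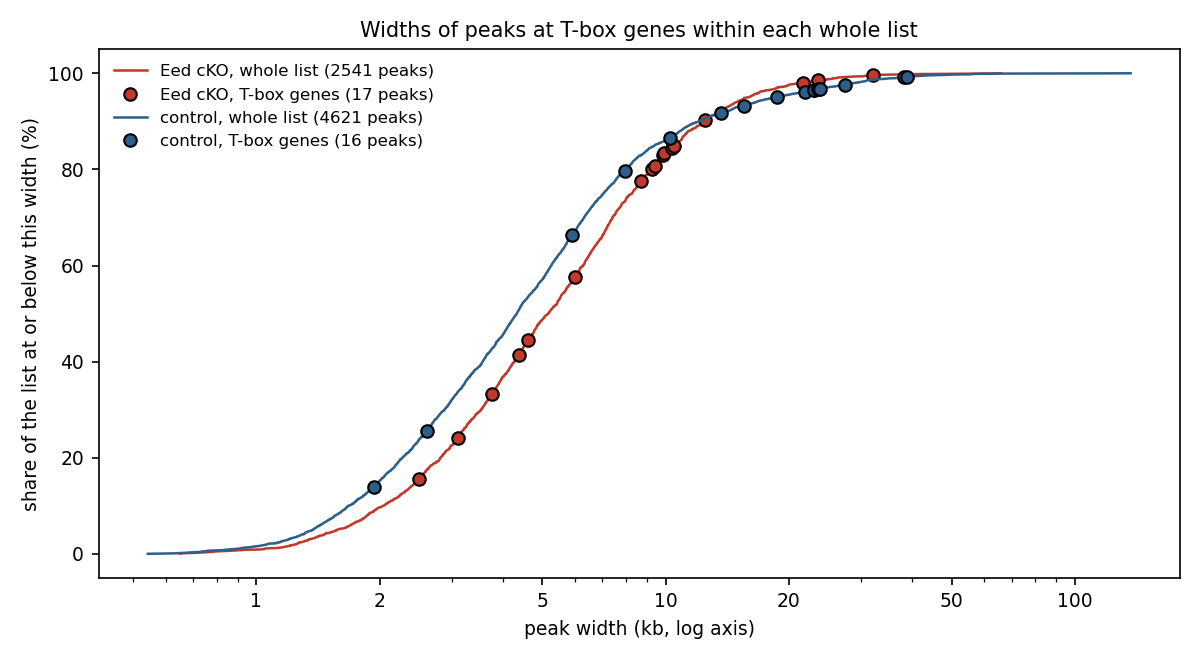
Share of each whole list at or below a given peak width (log axis, kb), with the peaks at T-box genes as points, Eed cKO in red and control in blue. Most control points sit at the upper right, with a median of 20.3 kb, while Eed cKO points have a median of 9.40 kb.

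Widths ranked high in both lists. The 17 Eed cKO peaks ranged from 2.50 to 32.1 kb with a median of 9.40 kb, against 5.17 kb for that list, and 12 of them exceeded that list median. The 16 control peaks ranged from 1.93 to 38.8 kb with a median of 20.3 kb, against 4.33 kb for that list, and 14 exceeded it. The widest, at Tbx3 and Tbx15, were ranks 36 and 39 of 4621 in control. Of the 20 ends of the 10 gene spans, 10 lay in an Eed cKO peak and 14 in a control peak, against 3.27% and 5.11% of the ends of all protein-coding spans. The 4 ends in control peaks alone were the upper ends of Eomes and Tbx18 and the lower ends of Tbx3 and Tbx5. Of all span ends in a control peak, 46.3% were also in an Eed cKO peak, and of the members' 14 ends 10 were.

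With 50 kb on either side in place of 20 kb, 23 Eed cKO and 24 control peaks were counted, against 17 and 16, where a peak in the windows of 2 members counts for each. The outermost peak inside 20 kb was the 2.61 kb control peak at Tbx4, 13019 bp from the span. Just outside 20 kb, Tbx1 had a 15.1 kb Eed cKO peak at 24.3 kb and a 23.3 kb control peak at 20.6 kb on its lower side. On its upper side was the 18.4 kb control peak already named, at 24.6 kb. Tbx3 had peaks of 2.46 kb in Eed cKO at 23.9 kb and 2.70 kb in control at 23.7 kb. At Tbx20 the next peaks lay 708 kb away in both lists.

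The other 7 mouse T-box genes are Tbr1, Tbx6, Tbx10, Tbx19, Tbx21, Tbx22 and Mga. An Eed cKO peak lay in the window of 1 of 7, against 14.3% of all protein-coding genes, and a control peak in that of 3 of 7, against 21.2%. Tbr1, the cortical relative of Eomes, had its closest Eed cKO peak 2335 kb away and a 26.4 kb control peak (chr2:61801913-61828328) over its whole span. Tbx21, the T-bet factor of T helper and NK cells, had 1 Eed cKO peak, of 19.1 kb, which lay 19664 bp away over Tbkbp1, where control had a 19.7 kb peak. It had 5 control peaks in all, of which the 7.62 kb one (chr11:97111392-97119016) lay over its start. Mga, a large repressor that joins PRC1 variants, had a 3.73 kb control peak alone. Tbx6, Tbx10, Tbx19 and Tbx22 had no peak of either list in the window. Tbr1 and Tbx18 were thus alike in having no Eed cKO peak and a control peak over 20 kb across the gene start.

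Partners and targets of T-box factors gave a mixed picture. Of 22 such genes, 11 had an Eed cKO peak in the same window, against 14.3% of all protein-coding genes. A control peak lay at 18, against 21.2%. The 11 were all among the 18, and of all genes with a control peak 55.1% had an Eed cKO peak. This list too was chosen with earlier results of these data known. The heart factors Nkx2-5 and Gata4, partners of Tbx5 and Tbx20, had 18.8 and 34.3 kb covered in Eed cKO against 31.1 and 47.7 kb in control. Pitx1, the hindlimb factor that acts with Tbx4, had 19.9 kb in Eed cKO against 22.6 kb in control. Control peaks alone were found at Fgf10, the limb ligand downstream of Tbx5, and at Cdkn1a and Cdkn2a, cell cycle inhibitors that Tbx2 represses. The same held for Cdkn2b, Gata6, Mef2c and Prrx1. Cdkn2a and Cdkn2b lie under the same 49.4 kb control peak, which counts for each. Hand1, Hand2, Isl1, Bmp4 and Mixl1 had at most 12.9 kb in Eed cKO against 6.69 to 56.7 kb in control. The share of control length covered in Eed cKO differed among them. It was 70.9% at Mixl1, 38.6% at Bmp4, 31.3% at Hand2, 29.0% at Hand1 and 9.41% at Isl1. At Hand2 the 12.9 kb leaves out Eed cKO length outside the window, while the 56.7 kb control peak was counted whole. With that length included, Eed cKO peaks covered 17717 bp of the Hand2 control peak. Mesp1 had a 6.82 kb control peak on the gene, of which 0% was covered in Eed cKO. Its 3.41 kb Eed cKO peak lay 16.1 kb from the span. Fgf8, a ligand of the primitive streak and limb, had 16.5 kb in each list, and Wnt3a had 8.37 kb in Eed cKO against 6.42 kb in control. Nppa and Gja5, the classical heart targets of Tbx5, and Msgn1 and Dll1, genes of presomitic mesoderm, had no peak in either list.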

How the data were processed

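H2AK119ub peak lists of Eed cKO and control epidermal progenitors were analysed, 1 list per genotype. The deposited values are peak positions (chromosome, start, end), per the file headers, with no score. The build mm10 and the tools come from the submitters' processing notes, which name Bowtie2 2.3.3.1 and SAMtools 1.9. How peaks were called, whether inputs were used and how 2 libraries became 1 list are points not given in the sources used here. Read depth is unknown. Starts were read as BED starts and are printed counted from 1. Gene spans and promoters came from RefSeq tables of GRCm38.p6. Where 1 promoter overlapped another on the opposite strand, 1810 overlaps were compared and 0 differed in sequence. Overlap required 1 bp, and peaks were counted at their whole width. Interval functions recovered all lengths in 20 of 20 simulated sets. Python 3.11.15, numpy 2.4.6, pandas 2.3.3 and matplotlib 3.10.9 were used.

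All 10 members and the other 7 T-box genes were named, with a list of 22 partners and targets (1 further gene of that list is not reported here), neighbours under the same peaks and cell type markers. Members, lists and measures were chosen with earlier results of these data known. Alternatives were other windows (the span alone, 2 kb, 50 kb), the wider 50% of each list, a trimmed control list, merged peaks and other overlap rules. No test was run, since neither peaks nor genes are replicates.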

Additional observations from a re-analysis of the deposited data

How the results depend on the processing

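The counts of members, the counts of peaks, the share of control length covered and the ratio of covered lengths stayed within 1.5 times their values under every alternative run for them. A control peak was found at 10 and an Eed cKO peak at 9 members under the 6 alternatives that changed the window, the lists or the joining of peaks. Members were not counted again under the other alternatives. With 50 kb on either side, 2 counts lay right at the limit of 1.5 times. These were control peaks, at 24 against 16, and control peaks overlapped by an Eed cKO peak, at 18 against 12. The share of control length covered ran from 46.3% with the wider 50% of each list to 55.2% with 50 kb on either side. The difference between linked pairs and other members, -1.12 percentage points, turned to 6.05 with the gene span alone and with 2 kb on either side. It was -5.27 with 50 kb on either side, -2.00 with the wider 50% of each list, -0.66 with the control list trimmed, -2.41 with peaks within 1000 bp merged and -10.5 without Tbx18. For this difference, all alternatives were chosen after seeing the data. That difference therefore has no stable direction. Counting only the part of a peak inside the window, also chosen later, gave a ratio of covered lengths of 53.9%, against 61.5% for whole peaks. Depth behind either list is unknown, and leaving out a replicate was not run, since the lists hold no values per library. No paired analysis was possible because each genotype has 1 list and the columns carry no replicate number.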
